A study of Mus musculus with 8 samples.

Results

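The serine/threonine phosphatase subunits read by the array were described across all 8 arrays. They comprised every probe whose gene symbol in the platform annotation begins with Ppp1 to Ppp6 followed by c (catalytic) or r (regulatory), or with Ppm1, with Ppp1r1b left out. The rule used symbols only and no measured value, though it was chosen with earlier results of these data known. It took 116 of 25697 probes, which read 73 genes: 41 probes of 23 genes for catalytic subunits and the PPM family, and 75 probes of 50 genes for regulatory subunits. The tissue was cerebral cortex of mice at postnatal day 0, either ERRγ-/- or wild type. ERRγ is the orphan nuclear receptor encoded by Esrrg, and the study asked how its loss changes transcript levels at an age when cortex holds mainly cells of the neuronal lineage. Each genotype had 2 biological samples, and each sample was read on 2 Illumina bead arrays, a first and a b array. The labels do not say which cells lack the receptor, how the allele was made, or the strain or sex. Nor do they say whether a sample was 1 animal or a pool. The p-values below thus reflect the spread among these samples alone, mostly pooled over all tested probes, and that spread may be technical.

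Protein phosphatases of the PPP type, which include PP1, PP2A, PP2B (calcineurin), PP4, PP5 and PP6, remove phosphate from serine and threonine. Apart from PP5, they work as complexes in which a few catalytic subunits are directed to their substrates, or held inactive, by many regulatory subunits. PPM phosphatases (PP2C) depend on metal ions and mostly act as single chains. In neurons PP1 and calcineurin are known for weakening synapses and for limiting kinase signalling, and PP2A for acting on microtubule-binding proteins such as tau.

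Arrays had mean intensities from 390 to 639 before normalization, and 11022 to 12013 probes were above background (detection p under 0.05) on each. Values below are normalized log2 signals, with the 2 arrays of a sample averaged, and differences are ERRγ-/- minus wild type. Probes differ in how brightly they read a given amount of RNA, so levels are compared between genotypes for 1 probe and never between probes. The 1 probe for Esrrg, the targeted gene, was at background on all arrays, at 4.97 and 4.92 in ERRγ-/- and 4.92 and 4.93 in wild-type samples, so it does not check the genotype labels. Markers of cortical projection neurons were present: Tbr1, Bcl11b, Neurod2 and Fezf2 were above background on all arrays, whereas Neurod6 was at background on all of them. Summed marker signal (log2) for meninges and fibroblasts stood apart in 1 sample. It was 10.36 and 11.42 in the ERRγ-/- samples and 10.70 and 10.57 in the wild-type samples. Of 8 probes, 5 were at background everywhere, Lum and Col1a1 among them. Only 2 entered the sum, and Igf2 made up nearly all of it, at 10.31 and 11.35 in ERRγ-/- against 10.64 and 10.53 in wild-type samples. The other, of Dcn, was above background on 2 arrays of each genotype. For projection neurons the marker sums were 13.21 and 13.18 in ERRγ-/- and 13.25 and 13.14 in wild-type samples. The choroid plexus list rested on Sostdc1, with Ttr at background everywhere, and Sostdc1 read 6.73 and 7.17 in ERRγ-/- against 6.16 and 6.57 in wild-type samples. The striatal sums, with 2 of 3 probes read, were 8.59 and 8.46 in ERRγ-/- and 8.09 and 8.18 in wild-type samples. Drd1 differed by 0.48, whereas Drd2, the other marker read, differed by -0.06 with overlapping samples. The sums of the endothelial list were 10.70 and 10.81 in ERRγ-/- against 10.54 and 10.58 in wild-type samples. Cldn5 made up most of these sums and differed by 0.25 without overlap. The tested probes of Tek, Flt1 and Pecam1 differed by 0.32, 0.05 and -0.13 with overlapping samples, and Cdh5 was at background. In the oligodendrocyte list Gpr17 read 6.77 and 6.67 in ERRγ-/- against 6.01 and 6.11 in wild-type samples, a difference of 0.66. Olig1 differed by -0.07 and Pdgfra by 0.06, and Olig2 was at background. Sums overlapped between genotypes for microglia (8.73 and 8.82 in ERRγ-/-, 8.80 and 8.59 in wild type). They also overlapped for erythroid markers (12.57 and 12.21, against 12.29 and 12.46). The part of all these markers in the results below was not tested.

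Most phosphatase genes were measurable. A probe was tested when it was above background on at least 4 of the 8 arrays, and 79 of the 116 probes passed (68.1%, against 45.0% of all probes), which left 55 of the 73 genes with a value. Of the 79, 75 were above background on every array and 0 were at background on all arrays of either genotype, so that no probe was tested through 1 genotype alone. All 11 PPP catalytic genes were measurable, as were 10 of 12 PPM genes and 34 of 50 regulatory genes.

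No phosphatase subunit differed between ERRγ-/- and wild-type cortex past the threshold. By limma, 0 of the 79 probes had an adjusted p under 0.05, over a background of 0.00864% (1 of 11568 probes). At an unadjusted p under 0.05 there were 3 probes (3.80%, against 7.11% of all probes): both bright Ppp1cb probes, which were lower in ERRγ-/- cortex (as were 3.53% of all probes at this threshold), and the Ppp1r16a probe, which was higher (3.58% of all probes). Under 4 other settings (normexp without detection p, the authors' normalized table, a variance trend and a random block for arrays) 7 of the 79 probes reached this p (8.86%, against 6.84% to 8.2% of all probes), so the order of the shares depends on the setting. A difference of more than 0.3 in either direction was seen for 7 probes (8.86%, against 12.8% of all probes). For 63 of the 79 probes (79.7%, against 76.7% of all probes) the difference between genotypes was smaller than the larger gap between 2 samples of the same genotype.

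Small differences leaned to lower signal in ERRγ-/- cortex. Of the 79 probes, 51 had a lower mean in ERRγ-/- cortex and 28 a higher one (64.6% lower, against 48.8% of all probes). The median difference was -0.05 over the 79 probes and 0.01 over all 11568. It was -0.06 for the 33 catalytic and PPM probes and -0.04 for the 46 regulatory probes. Without wild-type sample 2 these medians were -0.119 and 0.026, so that the regulatory one turned. Without ERRγ-/- sample 1 the catalytic median was -0.027 and without wild-type sample 1 it was -0.033, while the regulatory median was -0.087 without wild-type sample 1 and -0.015 without the first array of that sample. Under median scaling both medians turned positive, at 0.123 and 0.126, because that scaling moved the median of all probes to 0.174, and 50 of the 79 probes were then below that median, against 53 of 79 below it here. Both ERRγ-/- samples lay below both wild-type samples for 16 probes (20.3%, against 17.0% of all probes) and above both for 7 probes (8.86%, against 18.1%), so that 23 probes had no overlap, over a background of 35.1%. After centring each probe on its mean, the median over the 79 probes was -0.02 and -0.04 in the ERRγ-/- samples and 0.01 and 0.04 in the wild-type samples. Without wild-type sample 2, 41 of the 79 probes were lower. These counts describe the probes and carry no test of the group.

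**Figure D1:**
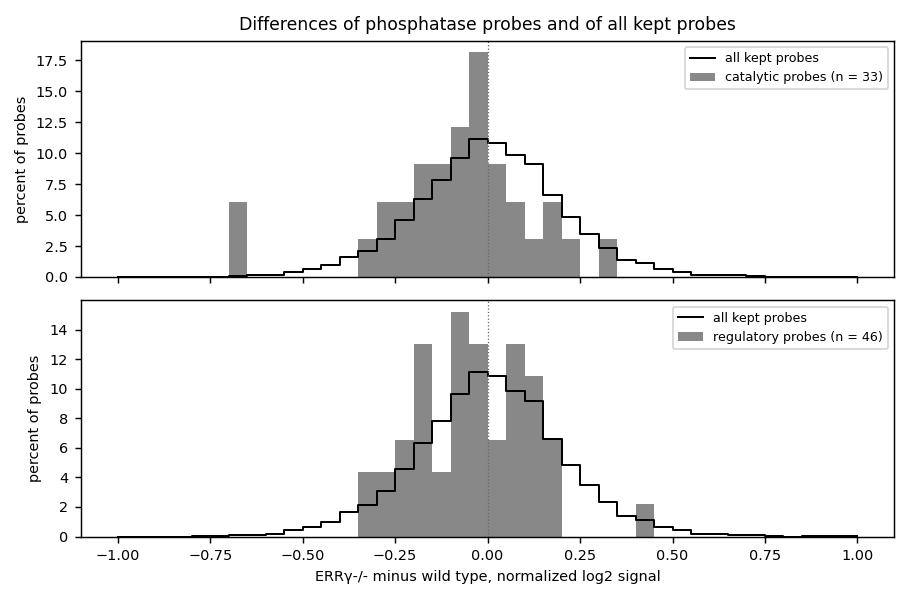
Distribution of differences (ERRγ-/- minus wild type, log2) for the 33 catalytic and PPM probes (top, bars) and the 46 regulatory probes (bottom, bars), as percent of probes per 0.05 bin, with all 11568 kept probes as a line. The 2 bright Ppp1cb probes, at -0.65 and -0.66, stand apart from the other phosphatase probes, and 1 of all kept probes lies outside the plotted range.

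Ppp1cb had the largest difference among the phosphatase subunits. It encodes the beta catalytic subunit of PP1, the isoform known as the one in myosin phosphatase, where it pairs with subunits of the Ppp1r12 family. Probe ILMN_2647627 read 8.76, 8.41, 8.61 and 8.82 on the ERRγ-/- arrays (first and b array of sample 1, then of sample 2), against 9.02, 8.95, 9.57 and 9.68 on the wild-type arrays in the same order. Probe ILMN_2647628 read 8.98, 8.71, 9.18 and 9.24 on the ERRγ-/- arrays, against 9.34, 9.41, 9.99 and 10.01 on the wild-type arrays. With both probes every ERRγ-/- array was lower than every wild-type array, and wild-type sample 2 was the highest sample. The sample means of ILMN_2647627 averaged 8.65 ± 0.09 in ERRγ-/- and 9.30 ± 0.46 in wild-type cortex (SD, n = 2 each), a difference of -0.65 (SE 0.20, 95% confidence interval -1.08 to -0.23, limma adjusted p = 0.553). For ILMN_2647628 the means were 9.03 ± 0.26 in ERRγ-/- and 9.69 ± 0.44 in wild-type cortex (SD, n = 2 each), a difference of -0.66 (SE 0.20, 95% confidence interval -1.10 to -0.22, limma adjusted p = 0.556). On the linear scale these were 0.636 and 0.633 times the wild-type signal. The wild-type samples themselves were 0.65 and 0.62 apart on the 2 probes, as far as the genotypes were. The SEs and intervals above rest mostly on a variance pooled over all tested probes, so they do not follow from the SDs given. Without wild-type sample 2 the differences were -0.33 and -0.35, and without wild-type sample 1 they were -0.98 and -0.97. In bulk cortex, fewer cells of a type and less RNA per cell cannot be told apart.

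With all samples averaged, the 2 bright Ppp1cb probes agreed more closely than those of any other gene in the set. Their differences were 0.00490 apart, whereas the 18 phosphatase genes with 2 or more tested probes had a median range of 0.16 and all 2003 such genes on the array one of 0.19. This closeness did not hold for each ERRγ-/- sample. Without ERRγ-/- sample 1 the differences were -0.59 on ILMN_2647627 and -0.48 on ILMN_2647628. Without ERRγ-/- sample 2 they were -0.72 and -0.84. The 2 probes read the same RNA of the same samples and so count as 1 observation of the gene. No source used here tells whether their target positions overlap. The third Ppp1cb probe, ILMN_2724066, was not above background on any array (detection p from 0.669 to 0.975). It read 4.75 and 4.76 in the ERRγ-/- samples and 4.78 and 4.82 in the wild-type samples, so that it neither bears out nor contradicts the other 2.

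**Figure D2:**
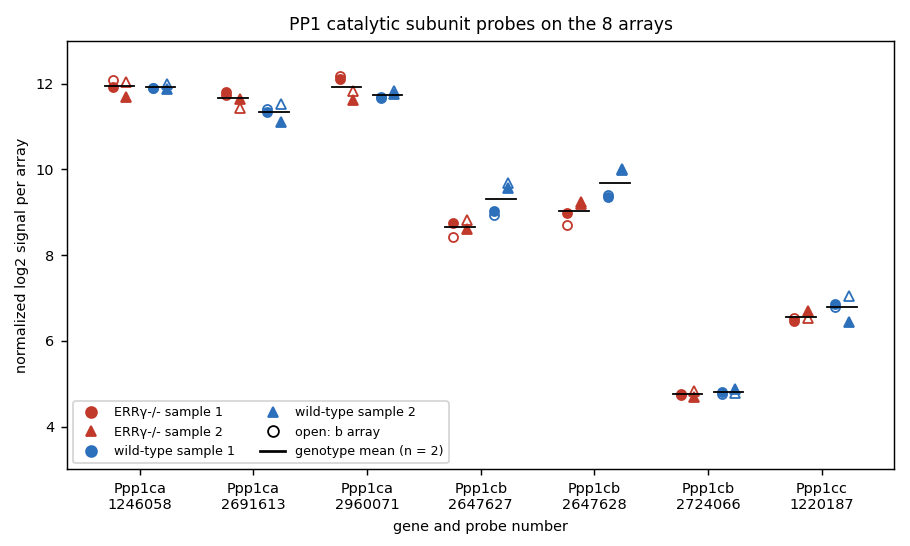
Normalized log2 signal of the 7 probes for PP1 catalytic subunits on each of the 8 arrays, with ERRγ-/- (red) left of wild type (blue). Circles are sample 1, triangles sample 2, open symbols b arrays, and bars the genotype mean of 2 samples. Only the bright Ppp1cb probes separate the arrays of the genotypes, with wild-type sample 2 highest.

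The promoter of Ppp1cb is printed because this gene had the largest difference, beside that of its paralog Ppp1cc. The capitals mark AAGGTCA, the core of the binding element of estrogen-related receptors. Each run gives the 250 bases upstream of the annotated start (RefSeq, build GRCm38.p6, plus strand of chromosome 5), at chr5:32458720-32458969 for Ppp1cb and chr5:122158025-122158274 for Ppp1cc.
Ppp1cb: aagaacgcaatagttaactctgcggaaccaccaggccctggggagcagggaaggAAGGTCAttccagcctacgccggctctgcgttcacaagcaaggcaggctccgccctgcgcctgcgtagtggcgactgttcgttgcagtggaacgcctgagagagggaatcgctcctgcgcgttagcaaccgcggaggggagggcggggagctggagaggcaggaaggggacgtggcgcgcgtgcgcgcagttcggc
Ppp1cc: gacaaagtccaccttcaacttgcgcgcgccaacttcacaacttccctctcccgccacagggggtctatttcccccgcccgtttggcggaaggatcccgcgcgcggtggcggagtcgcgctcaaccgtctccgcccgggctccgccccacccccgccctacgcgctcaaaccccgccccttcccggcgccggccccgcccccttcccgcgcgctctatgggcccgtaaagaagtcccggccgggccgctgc
The core begins 196 bases before the start of Ppp1cb, and no other phosphatase window searched held it. This core was chosen after the data were seen, whereas the planned motif was the longer element given below. Windows of 300 bases (250 before and 50 after the start) were matched for 59 of the 73 genes, 69 windows in all. They were searched on both strands. Genes without a matched window, Ppp1ca and Ppp1r16a among them, were not searched. The core was in 1 of 69 windows (1.45%, against 4.72% of all 32851 windows), and the longer element TNAAGGTCA, which contains it, in 0 of 69 (1.28% of all windows). Phosphatase windows had a median GC content of 63% and a median of 24 CpG dinucleotides, where all windows, non-coding genes included, had 52.7% and 7. A match is a run of letters and not a shown binding site.

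The other PP1 catalytic genes had smaller differences, and differences between genes were not tested. Ppp1ca, the alpha subunit, had 3 probes with differences of 0.31, 0.19 and 0.02 and limma adjusted p from 0.747 to 0.993. On the probe farthest from 0, ILMN_2691613, the samples read 11.76 and 11.55 in ERRγ-/- and 11.37 and 11.31 in wild-type cortex, without overlap. Its arrays did overlap, at 11.44 on the b array of ERRγ-/- sample 2 and 11.51 on that of wild-type sample 2. On the other 2 probes the samples overlapped. Ppp1cc, the gamma subunit known from dendritic spines, read 6.50 and 6.61 in ERRγ-/- and 6.82 and 6.75 in wild-type samples, a difference of -0.23 (SE 0.16, limma adjusted p = 0.841). Its samples did not overlap, with both ERRγ-/- samples lower, but its arrays did, since wild-type sample 2 read 6.44 on the first and 7.06 on the b array.

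PP2A catalytic genes had small differences. Ppp2ca, the alpha subunit, read 13.16 and 13.01 in ERRγ-/- and 12.93 and 12.95 in wild-type samples. The difference was 0.15 (95% confidence interval -0.20 to 0.49). Its arrays overlapped, at 12.92 on the first array of ERRγ-/- sample 2 and 12.97 on that of wild-type sample 2. Ppp2cb, the beta subunit, differed by -0.01, but its samples were far apart within each genotype, at 11.44 and 11.81 in ERRγ-/- and 11.34 and 11.93 in wild-type cortex. Calcineurin, the phosphatase activated by calcium and calmodulin, is built on Ppp3ca, Ppp3cb or Ppp3cc. All 4 of its tested catalytic probes had a lower mean in ERRγ-/- cortex, and none passed the test (limma adjusted p from 0.814 to 0.978). Ppp3cc, the gamma subunit, read 7.44 and 7.33 in ERRγ-/- against 7.60 and 7.67 in wild-type samples, a difference of -0.26 (SE 0.16). Its arrays overlapped slightly, at 7.45 on the first array of ERRγ-/- sample 1 and 7.44 on that of wild-type sample 2. The 2 tested Ppp3ca probes, for the alpha subunit prominent in forebrain, differed by -0.18 and -0.13, and Ppp3cb, the beta subunit, by -0.07. Under median scaling 2 of these 4 probes were lower than 0, and all 4 were below the median of all probes. Without wild-type sample 1, 3 were lower and 1, that of Ppp3cb, was higher.

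Among the remaining PPP enzymes, Ppp4c, which acts in DNA repair and at centrosomes, differed by -0.04, and Ppp6c, an enzyme that restrains Aurora A kinase, by -0.11. Ppp6c samples did not overlap, at 9.31 and 9.26 in ERRγ-/- and 9.41 and 9.39 in wild-type cortex. Its arrays did, at 9.48 on the b array of ERRγ-/- sample 2 and 9.31 on the b array of wild-type sample 1. Ppp5c encodes PP5, whose own TPR domain holds it inactive until chaperones bind, and its 2 probes went opposite ways. ILMN_2833772 differed by -0.19 and ILMN_2724795 by 0.16, both with overlapping samples.

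PPM phosphatases were read by 17 tested probes of 10 genes, of which 12 had a lower and 5 a higher mean in ERRγ-/- cortex. Under median scaling 4 were lower and 13 higher, with 11 below the median of all probes, and with the first arrays alone 7 were lower and 10 higher. Their median difference was -0.04, and their lowest limma adjusted p was 0.723. That value belonged to a probe of Ppm1b, which dephosphorylates kinases of stress and inflammatory signalling. Probe ILMN_2752074 read 10.95 and 10.95 in ERRγ-/- and 11.43 and 11.15 in wild-type samples, a difference of -0.34 (SE 0.17). The other Ppm1b probes differed by 0.05 and 0.24, and on the dim one wild-type sample 1 read 6.01 and wild-type sample 2 read 6.99. The gene thus had no single direction. Its relative Ppm1a, which is known to dephosphorylate SMADs and AMPK, was read by 3 probes with differences from -0.09 to 0.04.

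Several PPM genes have roles in neurons or mitochondria. Ppm1e and Ppm1f encode the phosphatases of CaM kinases, and Ppm1e is the form enriched in brain. Ppm1e probes differed by -0.21 and -0.12, with overlapping samples. Ppm1f differed by -0.03 on its bright probe and by -0.29 on a dim one that was above background on 2 arrays of each genotype. Ppm1k, the mitochondrial phosphatase that activates branched-chain ketoacid dehydrogenase, differed by 0.07 (95% confidence interval -0.30 to 0.43). Ppm1d, the p53 target Wip1, differed by -0.03 and Ppm1g, a nuclear enzyme tied to splicing, by -0.06. Values were -0.16 for Ppm1j, -0.10 and -0.03 for Ppm1l and 0.09 for Ppm1m, and the samples of the genotypes overlapped for each of these 3 genes.

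**Figure D3:**
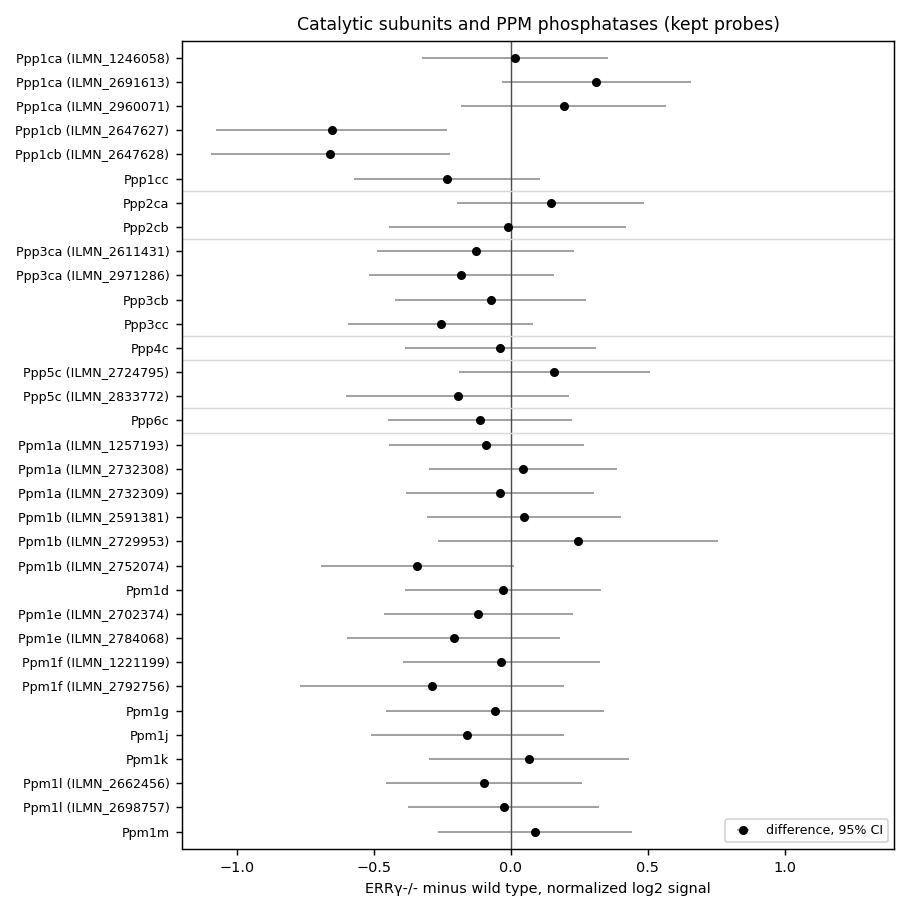
Difference (ERRγ-/- minus wild type, normalized log2 signal) with its 95% confidence interval for each of the 33 tested probes of catalytic subunits and PPM phosphatases, grouped by enzyme from PP1 at the top to PPM at the bottom. Intervals leave 0 out for the 2 Ppp1cb probes and for no other probe.

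Regulatory subunits of PP1 decide where the enzyme acts, and 16 of the 31 such genes on the array had a tested probe. Of 17 tested probes, 12 had a lower and 5 a higher mean in ERRγ-/- cortex, with a median of -0.07. Under median scaling 3 were lower and 14 higher, with 11 below the median of all probes, and without ERRγ-/- sample 1 or without wild-type sample 2 there were 8 lower and 9 higher. Ppp1r16a encodes MYPT3, a membrane-anchored relative of the myosin phosphatase targeting subunits. It read 7.84 and 7.94 in ERRγ-/- samples, against 7.28 and 7.69 in wild-type samples, with no overlap. The difference was 0.41 (SE 0.18, 95% confidence interval 0.03 to 0.78, limma adjusted p = 0.664), and without wild-type sample 1 it was 0.20. The b array of that sample was the lowest, at 7.03, against 7.52 on its first array. Ppp1r12c, a myosin phosphatase targeting subunit itself, differed by -0.16.

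Inhibitors of PP1 include Ppp1r1a (inhibitor-1), Ppp1r2 (inhibitor-2), Ppp1r11 (inhibitor-3) and Ppp1r14c (a kinase-enhanced inhibitor). Ppp1r2 read 10.50 and 10.60 in ERRγ-/- against 10.77 and 10.83 in wild-type samples, a difference of -0.25 (SE 0.16, limma adjusted p = 0.823) with no overlap. Its arrays did overlap. ERRγ-/- sample 2 read 10.91 on the first and 10.30 on the b array, and wild-type sample 2 read 10.67 on its b array. The other inhibitors differed by -0.06 for Ppp1r1a, -0.03 for Ppp1r11 and 0.17 for Ppp1r14c, and their samples overlapped. The neuronal scaffolds Ppp1r9a (neurabin) and Ppp1r9b (spinophilin) tether PP1 to actin in dendritic spines. Ppp1r9a read 11.01 and 11.16 in ERRγ-/- against 11.23 and 11.21 in wild-type samples, a difference of -0.13 (limma adjusted p = 0.938). Its arrays overlapped, at 11.26 on the first array of ERRγ-/- sample 2 and 10.93 on the b array of wild-type sample 2. Ppp1r9b differed by 0.05.

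Other PP1 subunits had overlapping samples in most cases. The glycogen-targeting subunits Ppp1r3c and Ppp1r3f differed by -0.16 and 0.00, and Ppp1r3c varied more within a genotype than between them, at 8.73 and 9.27 in ERRγ-/- and 9.44 and 8.88 in wild-type samples. Ppp1r15a, the GADD34 protein that directs PP1 to the translation factor eIF2α during stress, differed by -0.15. Ppp1r8, a nuclear subunit that binds splicing factors, differed by 0.08. Ppp1r13b, the p53-binding protein ASPP1, read 9.50 and 9.68 in ERRγ-/- against 9.43 and 9.44 in wild-type samples, a difference of 0.15. Its arrays overlapped, at 9.41 on the b array of ERRγ-/- sample 1 and 9.52 on that of wild-type sample 2. Of the remaining subunits Ppp1r37 differed by -0.22, Ppp1r26 by -0.18, and the 2 probes of Ppp1r35, a centriolar protein, by -0.09 and -0.07.

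PP2A holoenzymes join the catalytic subunit to a scaffold and to 1 variable B subunit that selects substrates. The scaffold gene Ppp2r1a read 12.14 and 12.04 in ERRγ-/- and 11.99 and 12.24 in wild-type samples, a difference of -0.02. In the B56 class, 9 probes of 4 genes had a median of -0.07, with 5 lower and 4 higher. Ppp2r5b, a B56 gene expressed in brain, read 8.26 and 8.11 in ERRγ-/- against 8.38 and 8.64 in wild-type samples. The difference was -0.32 (SE 0.17, limma adjusted p = 0.747). Its arrays overlapped slightly, at 8.33 on the first array of ERRγ-/- sample 1 and 8.30 on that of wild-type sample 1. Ppp2r5e, whose probes disagreed, differed by -0.30 on ILMN_2623244 and by 0.13 on ILMN_1217444. On both, the samples of the genotypes did not overlap, in opposite order, though their arrays did. Ppp2r5d had 4 tested probes with differences of -0.23, -0.18, 0.00 and 0.14, and Ppp2r5c 2 with 0.12 and -0.07.

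The B55 class, known for acting on tau and on mitotic substrates, was read by 4 probes of 3 genes. Ppp2r2c, a brain-enriched member, differed by -0.25 on ILMN_2760691, where the samples read 7.57 and 7.65 in ERRγ-/- against 7.84 and 7.88 in wild-type cortex. The arrays of that probe overlapped. ERRγ-/- samples 1 and 2 read 7.83 and 7.90 on their first arrays but 7.32 and 7.39 on their b arrays. Wild-type arrays read from 7.78 to 7.94. On ILMN_1228308 Ppp2r2c differed by 0.16, and the samples overlapped. Ppp2r2b, another neuronal member, differed by -0.09 and Ppp2r2d by -0.13. Ppp2r3c, of the PR72 class, differed by 0.08 (95% confidence interval -0.26 to 0.43).

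Regulatory genes of calcineurin, PP4 and PP6 were mostly close to 0. Ppp3r1, the calcium-binding calcineurin B, read 11.36 and 11.23 in ERRγ-/- and 11.27 and 11.25 in wild-type samples, a difference of 0.04 (95% confidence interval -0.30 to 0.38). Among 9 tested PP4 probes, the one for Ppp4r3a, a SMEK subunit that recruits substrates, was farthest from 0. It read 9.18 and 9.33 in ERRγ-/- against 9.43 and 9.76 in wild-type samples, a difference of -0.34 (SE 0.17, limma adjusted p = 0.739). Its paralog Ppp4r3b differed by 0.15 and -0.04, the 3 probes of Ppp4r1 by 0.00 to 0.09, the 2 of Ppp4r4 by -0.06 and -0.05, and the dim Ppp4r2 probe by -0.03. In the SAPS-domain subunits of PP6, Ppp6r1 differed by -0.18, with 8.02 and 8.09 in ERRγ-/- against 8.17 and 8.29 in wild-type samples. Its arrays overlapped, since ERRγ-/- sample 1 read 8.31 on the first and 7.72 on the b array. Ppp6r2 differed by -0.07, and Ppp6r3 by 0.11 and 0.06.

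**Figure D4:**
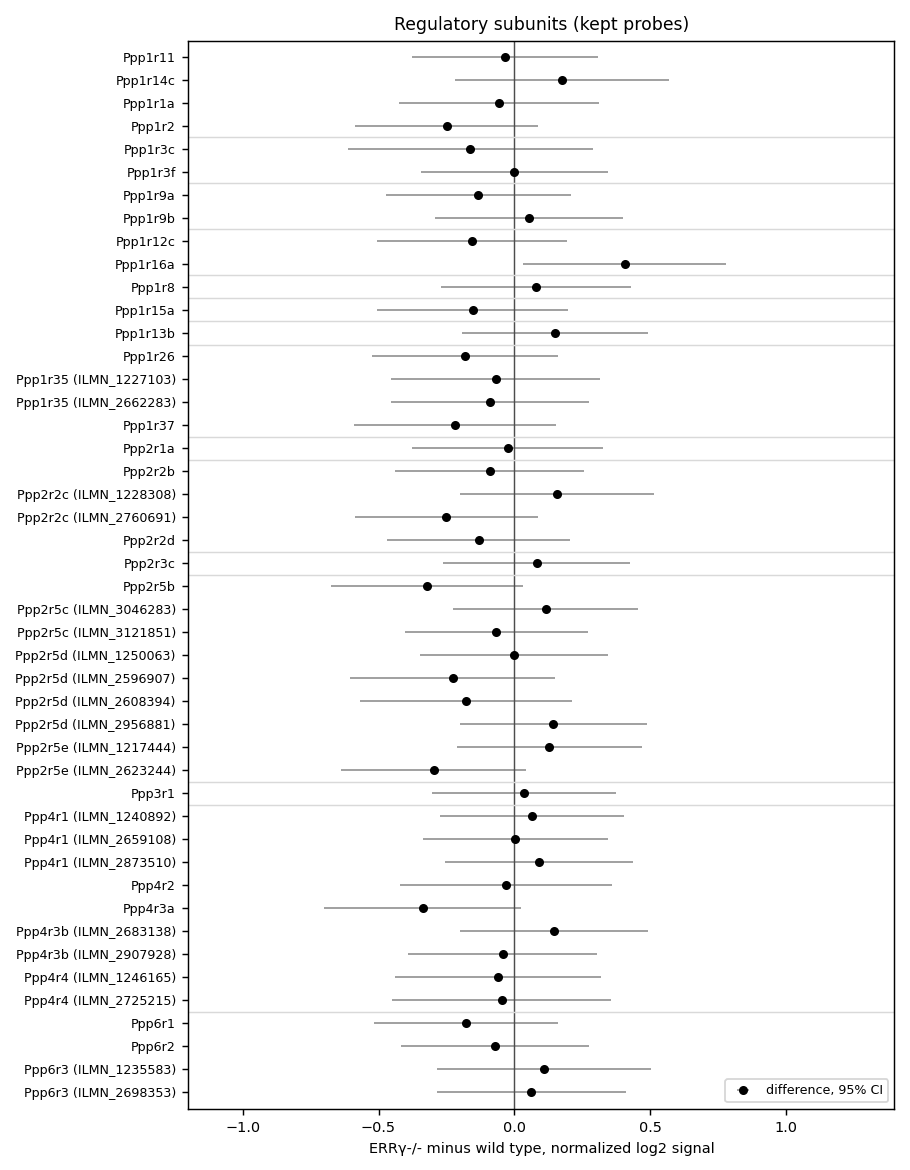
Difference (ERRγ-/- minus wild type, normalized log2 signal) with its 95% confidence interval for each of the 46 tested probes of regulatory subunits, grouped from PP1 inhibitors at the top to PP6 subunits at the bottom. The Ppp1r16a interval, from 0.03 to 0.78, leaves 0 out.

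Probes of the same gene disagreed about as often as for other genes. Of the 18 phosphatase genes with 2 or more tested probes, 10 had differences of 1 sign (55.6%, against 51.5% of 2003 genes), and for 5 the probes were more than 0.3 apart (27.8%, against 28.6%). Those 5 were Ppm1b, Ppp2r5e, Ppp2r2c, Ppp2r5d and Ppp5c, and each of them had probes on both sides of 0. Genes with 1 tested probe, 37 of the 55, had no such check, Ppp1r16a and Ppp1cc among them.

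**Figure D5:**
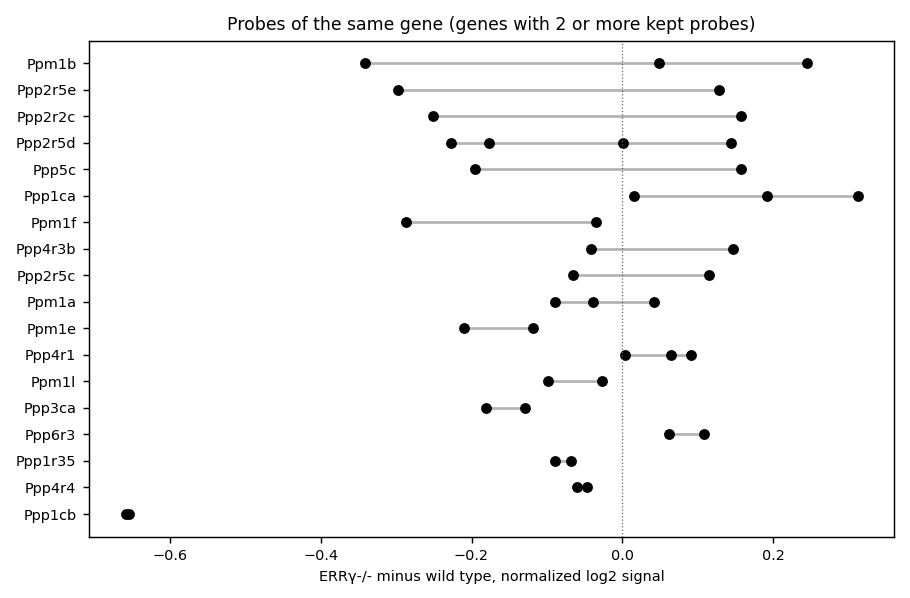
Difference (ERRγ-/- minus wild type, normalized log2 signal) of every tested probe for the 18 phosphatase genes with 2 or more, 1 gene per row, ordered by the range between probes. Ppp1cb, at the bottom, combines the smallest range with the lowest differences, whereas Ppm1b, at the top, spans from -0.34 to 0.24.

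Of the 37 probes that were not tested, 32 were at background on all 8 arrays and 5 were above background on 1 to 3 arrays. The 18 genes left without a value were Ppm1h and Ppm1n and 16 regulatory genes. They include Ppp1r3a, the muscle glycogen-targeting subunit, Ppp1r14a, an inhibitor of smooth muscle myosin phosphatase, and Ppp2r1b, the second PP2A scaffold. Ppp1r15b, the constitutive eIF2α subunit, was above background on 1 ERRγ-/- array and 0 wild-type arrays, and Ppp1r17, a substrate of cGMP-dependent kinase known from Purkinje cells, on 1 ERRγ-/- and 2 wild-type arrays. A probe at background may read its transcript poorly, so these transcripts are not shown to be absent.

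Partners of these enzymes that carry other names also gave no probe past the threshold by limma. For PP1 partners all 7 tested probes, of 5 genes, had a higher mean in ERRγ-/- cortex (median 0.05), under median scaling too, though 2 were lower without ERRγ-/- sample 2 or without wild-type sample 1, and 3 with the first arrays alone. Rrp1b, a nucleolar protein that binds PP1, differed by 0.36, 0.33 and 0.04 on its 3 probes (lowest limma adjusted p = 0.664). The probe at 0.33 was above background on all 4 ERRγ-/- arrays and 1 of 4 wild-type arrays, so it was tested mainly through the genotype in which it read higher. Cdca2, a chromatin-targeting subunit, differed by 0.23. For PP2A partners 14 of 19 tested probes, of 12 genes, were lower (median -0.11), and 3 of the 19 had an unadjusted p under 0.05, all lower, where 3.53% of all probes were lower at this threshold. Under median scaling 7 of the 19 were lower than 0, and 14 were below the median of all probes. Strip2 and Mob4, of the STRIPAK complex, differed by -0.43 and -0.39 on these probes and by -0.19 and -0.17 on their other tested ones. The third was a probe of Lcmt1, the PP2A methyltransferase, named after its values were seen, with -0.36. Its other probes differed by 0.10 and -0.08. Both Strip2 probes were dim. The one at -0.43 was above background on 2 of 4 ERRγ-/- and 3 of 4 wild-type arrays, and the other on 3 of 4 in each genotype.

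Calcineurin partners had 7 probes higher and 5 lower (median 0.03). Nfatc3, a transcription factor that calcineurin dephosphorylates, differed by 0.44 and was above background on all 4 ERRγ-/- arrays and 1 of 4 wild-type arrays, and its relative Nfatc4 differed by -0.34 (limma adjusted p = 0.602 and 0.781). Other serine/threonine phosphatases had 9 probes higher and 5 lower (median 0.09), with Ctdp1, a phosphatase of RNA polymerase II, at 0.26 and 0.23, and Ctdspl2 at -0.32 and 0.15 on its 2 probes. For PP4 and PP6 the 1 partner probe found, of Ankrd44, was at background on all arrays.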

How the data were processed

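Biotinylated cRNA from Trizol-extracted, DNase-treated RNA was read, per the labels' protocols, on bead arrays made by Illumina. The deposited intensity was a linear mean per probe and array, not normalized, and the deposited detection p-value set each probe against background, per the file headers. The submitters' processing notes list GenomeStudio, with no version. A second deposited table held intensities that the authors had brought to 1 distribution (medians 142.5 to 142.7), by a method not given in the sources used here.

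In R 4.3.3, limma 3.58.1 (neqc: normexp through detection p, offset 16, quantile normalization, log2) was applied. Probes with detection p under 0.05 on at least 4 of 8 arrays were kept (11568). The 2 arrays of a sample were averaged, so that n is 2 per genotype. Every probe was its own row in lmFit and eBayes, two-sided, with Benjamini-Hochberg adjustment over 11568 probes and a threshold of 0.05. There were 13.07 prior and 2 residual degrees of freedom, so the variance of each probe rested mostly on that pooled over all tested probes. Unlike a fit with 1 probe per gene, this fit tests second probes. The fit was tested on simulated data, where 10.7% of changes of 0.5 log2 and 88.8% of changes of 1 passed the threshold. Changes of 0.5 were thus mostly missed there.

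Members and lists were chosen with earlier results of these data known. The text names every catalytic gene with a tested probe, regulatory probes with unadjusted p under 0.05, the 5 brightest regulatory genes, the smallest p per regulatory class, genes whose probes differ by over 0.3 and 2 partners per list, and adds the other tested members by their differences. Protein sequences were not used here. Samples with the same replicate number were not treated as pairs in the main fit. Their deviations correlated at -0.00515 over probes. That shows no strong shared shift but cannot tell whether the design paired them. Alternatives covered background correction, normalization, the filter, technical arrays, the variance prior, the threshold, the choice of 1 probe for each gene, the replicate block and leaving out any 1 sample. A run without the dimmest array was chosen after seeing the data. The core motif was also chosen then.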

Additional observations from a re-analysis of the deposited data

How the results depend on the processing

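No phosphatase probe had a limma adjusted p under 0.05 in the 17 refitted alternatives, or under 0.10 in the fit reported above (0 probes in each). The count at an unadjusted p under 0.05 ran from 2 to 7 of 79 probes (2.53% to 8.86%, against 5.56% to 12% of all probes over these settings), and was 10 of 116 with no filter (8.62%, against 6.23%). Median scaling moved the median difference to 0.123 for catalytic and PPM probes and to 0.126 for regulatory probes, with the median of all probes at 0.174. Relative to all probes these were -0.051 and -0.048. The regulatory median, relative to all probes, was 0.025 without wild-type sample 2. Both bright Ppp1cb probes stayed lower in ERRγ-/- cortex in each alternative that tested them, at -0.98 to -0.33 and -0.97 to -0.35. With the replicate block they were -0.65 and -0.66, with limma adjusted p = 0.0954 and 0.0903, the lowest of any alternative, and the highest was 0.905. Under the replicate block the prior degrees of freedom were infinite, so every probe got the same variance. The p-values of that setting, and its 12 calls over all 11568 probes, thus leave out each probe's own spread. Median scaling gave 5 calls, against 1 here. Ppp1r16a stayed higher, at 0.20 to 0.61. Of the 79 probes, 22 kept their sign in each alternative. The 4 samples limit the precision of each value, and dim probes near background have little room to show a lower level.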
